A study of Mus musculus with 24 samples.

Results

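IgG1 and IgE heavy chains were examined in B cell receptor (BCR) transcripts sequenced from the spleens of BALB/c mice. An entry of a BCR table was kept when its V and J segments were heavy-chain segments, its complementarity-determining region 3 (CDR3) translated without a stop or a frame error, and its constant region was IGHG1 or IGHE. These rules kept 25590 IgG1 and 2644 IgE entries, out of 583846 productive heavy-chain entries and 1154635 entries of all chains. The 8 BCR libraries, 4 titled CT-26 and 4 titled control, belong to a series of 24 libraries that also holds RNA-seq and T cell receptor libraries under the same titles. CT-26 is a colon carcinoma cell line of the same mouse strain, and per the labels it was injected at 8 weeks of age. All libraries share strain, tissue and cell type label (splenocyte), with no genetic change named. The treatment field goes against the titles, because libraries titled CT-26 carry the entry for healthy controls and libraries titled control carry the entry for injected CT-26 cells. Since each field divides the libraries into these 4 and 4, titles serve as names here and no difference is read as tumour against healthy. No label says whether the libraries of a set came from separate mice, so p-values measure only the spread between these libraries, which may be technical.

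A B cell first makes IgM and IgD, and class switch recombination then joins the same rearranged V, D and J segments to a constant gene further downstream. IgG1 and IgE are the isotypes to which interleukin 4 directs mouse B cells, and IgE can be reached either straight from IgM or by way of IgG1. IgE binds receptors on mast cells and basophils and is the rarest isotype in serum, whereas IgG1 is abundant. The CDR3 spans the V, D and J junction and is carried along when a cell switches, so that one CDR3 nucleotide sequence seen with several isotypes marks a shared rearrangement. In the GRCm39 coordinates of the RNA tables all 3 constant genes lie on chromosome 12, minus strand. Ighe occupies 113232880 to 113236868, Ighg1 113288860 to 113294143 and Ighm 113382178 to 113386350.

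The CDR3 sequences below are the largest IgE clonotypes of the titled CT-26 libraries, the fourth-largest IgE clonotype also found with IgG1, and the IgE and IgG1 sequences that recurred in titled control libraries. The recurring IgG1 sequence was chosen after its values were seen. They are written 5′ to 3′ as deposited, and capitals mark the longest run of at least 6 bases shared with a germline D segment of GENCODE M21.
IgE, titled CT-26 1: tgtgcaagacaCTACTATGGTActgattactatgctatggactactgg
IgE, titled CT-26 2: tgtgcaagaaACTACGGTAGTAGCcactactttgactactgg
IgE, titled CT-26 3: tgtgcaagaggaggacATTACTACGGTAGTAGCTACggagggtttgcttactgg
IgE, titled CT-26 4: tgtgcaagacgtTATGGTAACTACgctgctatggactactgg
IgE, titled CT-26 3, fourth-largest shared: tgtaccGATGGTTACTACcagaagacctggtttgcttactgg
IgE, titled control 1, 3 and 4: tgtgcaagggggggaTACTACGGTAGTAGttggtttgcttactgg
IgG1, all titled control libraries: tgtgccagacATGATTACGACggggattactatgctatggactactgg

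Each of the first 4 sequences carried the IgE and the IgG1 constant region in the same library, with more reads of IgG1. Reads are summed over all V calls of a sequence, and the V segment named is that of its largest IgE clonotype. With IgG1 the V call with most reads differed from it in all 4. It was IGHV5-9, IGHV5-6-5, IGHV5-4 and IGHV5-9 in titled CT-26 1 to 4. In titled CT-26 3 and 4 the V segment named was not among the IgG1 calls, so that match is of the CDR3 and not of that V segment. The titled CT-26 1 sequence, with IGHV5-12-2 and IGHJ4, had 175 IgE reads, 4776 IgG1 reads and 235 IgM reads. The titled CT-26 2 sequence, with IGHV5-17 and IGHJ2, had 94 IgE reads, 785 IgG1 reads and 53 IgM reads. The titled CT-26 3 sequence, with IGHV5-17 and IGHJ3, had 176 IgE reads, 493 IgG1 reads and 48 IgM reads. The titled CT-26 4 sequence, with IGHV5-12-2 and IGHJ4, had 181 IgE reads, 1420 IgG1 reads and 74 IgM reads. All 4 ranked first or second among both the IgE and the IgG1 sequences of their libraries. Among the sequences above found with both isotypes, the fourth-largest shared clonotype, with IGHV1-5 and IGHJ3, was the one with fewer IgG1 than IgE reads. It had 155 IgG1 against 200 IgE reads, and it ranked ninth in IgG1 and first in IgE of its library. The titled control IgE sequence, with IGHV5-9-4 and IGHJ3, had 11, 11 and 4 IgE reads in titled control 1, 3 and 4 and 0 IgG1 reads in every library. In titled control 2 all 8 IgE clonotypes had 1 read, so none was largest.

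Libraries shared CDR3 nucleotide sequences, which bears on every result that follows. Of IgG1 sequences with at least 2 reads, between 2.47% and 6.72% in titled CT-26 libraries and between 35.2% and 43.4% in titled control libraries also occurred with IgG1 in another library of the same set. Across sets the share was at most 2.65%. The titled control IgG1 sequence printed above had 74, 78, 429 and 85 IgG1 reads in titled control 1 to 4 and 0 in titled CT-26 libraries. The titled CT-26 1 IgE sequence also had 7 IgE reads in titled CT-26 4. Whether such sequences arose in separate mice or passed between libraries was not tested, and the comparisons between sets of isotype shares, clone sizes, sharing, CDR3 properties and J and V usage were repeated without them. No library was a copy of another, since chi-square over degrees of freedom between libraries of a set was at least 12.3.

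Both isotypes made up a far larger part of the heavy-chain reads in titled CT-26 libraries. IgE held 744, 839, 2112 and 2163 reads in the titled CT-26 libraries, against 45, 8, 52 and 17 reads in the titled control libraries. As a share of productive heavy-chain reads, IgE averaged 0.525% ± 0.275 in titled CT-26 and 0.0164% ± 0.0128 in titled control libraries (SD, n = 4 each), a ratio of 31.9. IgG1 held 18301, 23324, 13305 and 21719 reads in titled CT-26 libraries, against 1477, 1557, 1845 and 1443 in titled control libraries. Its share averaged 6.89% ± 1.62 in titled CT-26 and 0.828% ± 0.208 in titled control libraries (SD, n = 4 each), a ratio of 8.32. The sets overlapped in neither isotype. Both differences were called, with an adjusted p of 0.0327 in a two-sided exact permutation test over 70 assignments, adjusted by Benjamini-Hochberg over 8 isotypes; the smallest unadjusted p this design allows is 0.0286. The productive heavy-chain reads behind the shares numbered 266418 to 291615 in titled CT-26 and 162551 to 209707 in titled control libraries.

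**Figure D1:**
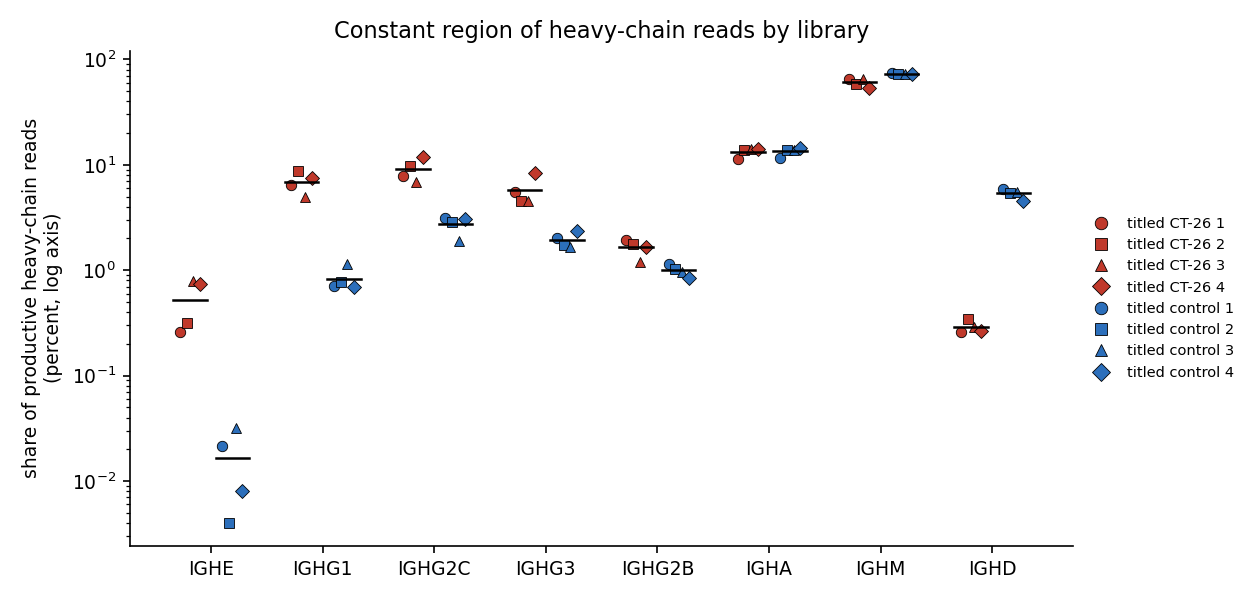
Share of productive heavy-chain reads (percent, log axis) by constant region; each point is 1 library, red for titled CT-26 (left) and blue for titled control (right), and bars are set means. IgE lies between 0.261% and 0.782% in titled CT-26 libraries and at most at 0.0320% in titled control libraries, with no overlap, whereas IGHA overlaps.

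The other isotypes differed too, so the rise was not limited to IgG1 and IgE. IGHG2C averaged 9.08% in titled CT-26 and 2.75% in titled control libraries, IGHG3 5.73% and 1.94%, and IGHG2B 1.65% and 1.0%. These names are the constant calls as deposited, with 5 entries called IGHG2A counted as IGHG2C. IGHD, the isotype of naive B cells, averaged 0.288% in titled CT-26 and 5.34% in titled control libraries, and IgM 60.5% and 72.9%. Each of these was called at the same adjusted p of 0.0327 in the exact permutation test, and IGHA was not, at 13.4% in both sets (adjusted p = 0.857, exact permutation). IgE and IgG1 had the highest ratios of titled CT-26 over titled control among the 8 isotypes. With IgM and IgD left out of the total, the share of IgE among switched reads was still higher, by 1.33 percentage points, and that of IgG1 by 14.3 points (adjusted p = 0.0343 each, exact permutation). Fewer cells of a kind and less transcript per cell cannot be told apart in such libraries.

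A clonotype was defined as 1 combination of V, J and CDR3 nucleotide sequence, so a CDR3 with several V calls counts as several clonotypes. IgE comprised 332, 371, 915 and 932 clonotypes in titled CT-26 libraries, against 20, 8, 37 and 12 in titled control libraries. IgG1 comprised 5122, 6409, 4625 and 6430 clonotypes in titled CT-26 libraries, against 589, 609, 729 and 681 in titled control libraries. Most were seen once, since 85.6% ± 0.412 of IgE and 79.9% ± 0.474 of IgG1 clonotypes in titled CT-26 libraries had 1 read (SD, n = 4). Clonotypes with at least 10 reads numbered 10, 12, 25 and 31 for IgE in titled CT-26 libraries and 2, 0, 1 and 0 in titled control libraries. A part of the small clonotypes lay close to a large one: 27.7% ± 1.65 of IgG1 clonotypes in titled CT-26 and 15.4% ± 3.53 in titled control libraries (SD, n = 4 each) were 1 base from a clonotype of the same V and J with at least 10 times their reads. The share of these that are sequencing errors was not tested.

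Clone sizes of IgG1 were compared at 1443 reads per library, the total of the smallest. At that depth the titled CT-26 libraries held 645, 678, 782 and 725 clonotypes and the titled control libraries 577, 573, 601 and 681. The sets overlapped, and the means of 708 ± 59.4 and 608 ± 50.2 (SD, n = 4 each) did not differ past the threshold (adjusted p = 0.257, exact permutation over 3 tests). The 10 largest clonotypes took 28.2% ± 7.77 of IgG1 reads in titled CT-26 and 34.3% ± 5.26 in titled control libraries (adjusted p = 0.4, exact permutation, n = 4 each). Clonality, which is 0 when all clonotypes are equal and 1 when a single one holds all reads, was 0.144 ± 0.0480 and 0.171 ± 0.0272 (adjusted p = 0.4, exact permutation, n = 4 each). Without sequences found in another library all 3 differences changed sign, again without a call, the difference in clonotype number then being -42.65. With 1-base variants merged the difference in clonotype number was 7.26. The largest IgG1 clonotype held 22.8%, 8.10%, 3.33% and 5.99% of IgG1 reads in the titled CT-26 libraries, against 6.97%, 6.87%, 17.6% and 5.82% in the titled control libraries. IgE sizes were not tested between sets, because the smallest library had 8 reads.

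**Figure D2:**
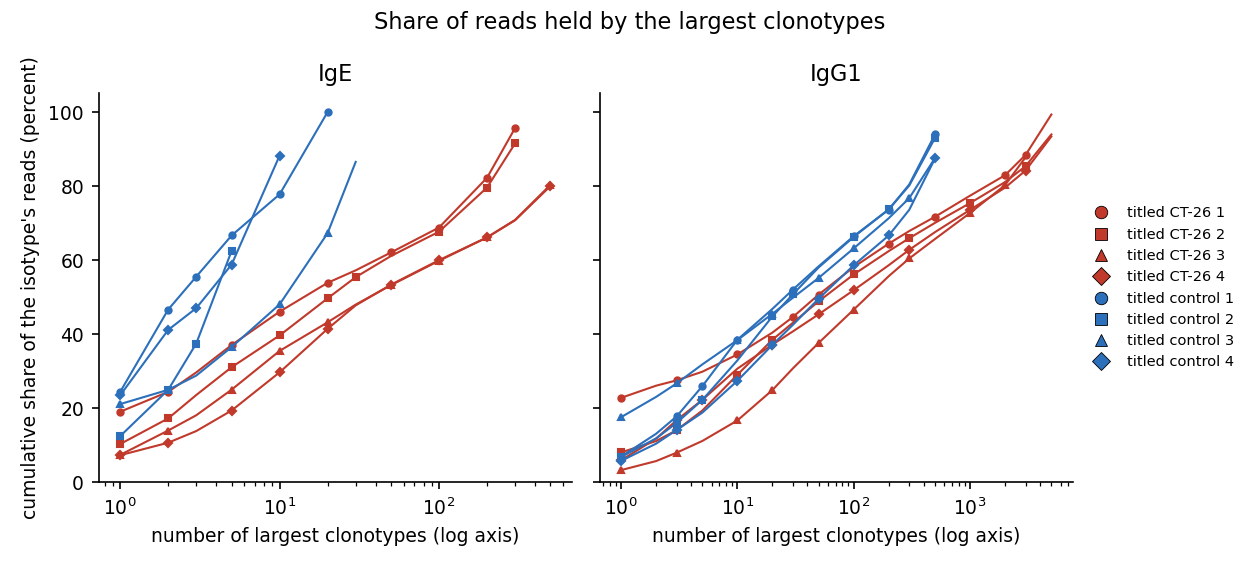
Cumulative share of an isotype's reads (percent) held by its largest clonotypes, against the number of clonotypes (log axis), with 1 line per library, red for titled CT-26 and blue for titled control. Depth differs between the sets, so curves are to be compared within a set; among titled CT-26 libraries the 10 largest IgE clonotypes hold between 29.7% and 46.1% of IgE reads.

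Within the titled CT-26 libraries, IgE was compared with IgG1 at 744 reads each. IgE then comprised 332, 335, 381 and 375 clonotypes, against 379, 391, 457 and 416 for IgG1, fewer in each library. The 10 largest clonotypes held 46.1%, 39.7%, 35.1% and 30.1% of IgE reads, against 35.3%, 29.2%, 17.3% and 31.4% of IgG1 reads. Titled CT-26 4 was the library where the 10 largest IgE clonotypes held less than those of IgG1. Over all 8 libraries, each thinned to its own IgE reads, clonality was higher in IgE than in IgG1 by 0.0451 ± 0.0455 (SD), in 7 of 8 libraries (adjusted p = 0.0625 over 8 tests, exact permutation of signs), which missed the threshold. Titled control libraries entered this comparison with 8 to 52 IgE reads. In titled control 2 each IgE clonotype had 1 read, so its IgE clonality could only be 0. IgG1 exceeded IgM in clonality in 8 of 8 libraries, by 0.116 ± 0.0425 (SD; adjusted p = 0.0208, exact permutation of signs).

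IgE CDR3 sequences recurred with other isotypes of the same library. Of the distinct IgE CDR3 nucleotide sequences, 82 of 309, 127 of 351, 203 of 842 and 222 of 859 were also found with IgG1 in the titled CT-26 libraries, against 1 of 19, 2 of 8, 2 of 36 and 1 of 12 in the titled control libraries. These are 26.5%, 36.2%, 24.1% and 25.8% in titled CT-26 libraries, with exact 95% intervals between 21.3% and 41.5%, against 5.26%, 25%, 5.56% and 8.33% in titled control libraries, with intervals between 0.133% and 65.1%. The sets overlapped through titled control 2, whose share rests on 8 sequences. The difference of 17.1 percentage points was not called (adjusted p = 0.114 over 2 tests, exact permutation, n = 4 each). It was 0.711 points when IgG1 was thinned to the reads of the smallest library, so the deeper IgG1 of the titled CT-26 libraries moved with it. Without sequences found in another library it was 21.7 points, and weighted by IgE reads 52.8 points, and both of these were called (adjusted p = 0.0286 each, exact permutation, n = 4 each). In neither of these was IgG1 thinned to equal reads. Intervals and limits here cover counting error only, because reads carry no molecular identifiers that the tables show.

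The share of IgE sequences also found with IgM was similar in size. It was 37.2%, 33.0%, 31.0% and 27.4% in titled CT-26 libraries, against 26.3%, 50%, 38.9% and 8.33% in titled control libraries, and the sets overlapped (adjusted p = 0.886, exact permutation, n = 4 each). The difference was called when weighted by IgE reads, at 39.6 percentage points, and without sequences found in another library, at 14.9 points (adjusted p = 0.0286 each, exact permutation, n = 4 each). In neither of these was IgM thinned to equal reads. In titled CT-26 libraries 51, 73, 111 and 114 IgE sequences were found with both IgG1 and IgM, 31, 54, 92 and 108 with IgG1 and not IgM, and 64, 43, 150 and 121 with IgM and not IgG1. IgA shared between 18.9% and 23.3% of the IgE sequences of these libraries. At least 1 of the other 7 constant regions was found with 48.5%, 49.6%, 43.8% and 42.1% of IgE sequences in the titled CT-26 libraries.

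Sharing was far more common within a library than between libraries of the titled CT-26 set. The share of IgE sequences found with IgG1 in any other library was at most 3.13%, and with IgM at most 8.55%. In titled control libraries the share found with IgG1 of another library of the set reached 37.5%, above the share found within the same library in that case, so sharing within a titled control library did not stand apart from sharing between libraries. Of the shared IgE and IgG1 sequences in titled CT-26 libraries, 81 of 82, 126 of 127, 196 of 203 and 218 of 222 had the same J call. Between 58.6% and 64.6% had the same V call, and V calls were not stable, because between 6.56% and 8.77% of IgG1 sequences in these libraries carried more than 1 V call. A sequence of 1 read cannot show a second call. The CDR3 of the largest IgG1 clonotype had 13, 17, 6 and 13 V calls in IgG1 of the titled CT-26 libraries.

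The larger an IgE sequence was, the more often it was found with IgG1 in titled CT-26 libraries. Of sequences with 1 IgE read, 410 of 2017 (20.3%) were found with IgG1, of those with 2 to 9 reads 166 of 268 (61.9%), and of those with at least 10 reads 58 of 76 (76.3%). The lowest and highest library in these classes were 17.0% and 29.2%, 53.1% and 75.7%, and 71.4% and 87.5%. With IgM the 3 shares were 26.6%, 46.6% and 85.5%. Among the 10 largest IgE sequences, 8, 9, 10 and 8 were found with IgG1, 9, 10, 9 and 10 with IgM, and 0 with neither. The shared sequences held 64.1%, 68.5%, 63.0% and 56.9% of IgE reads and 39.0%, 42.9%, 29.8% and 46.0% of IgG1 reads in the 4 titled CT-26 libraries, while making up 1.78%, 2.24%, 5.05% and 4.0% of distinct IgG1 sequences. In 58, 88, 115 and 154 of them IgG1 had more reads than IgE, and in 5, 10, 20 and 18 IgE had more.

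**Figure D3:**
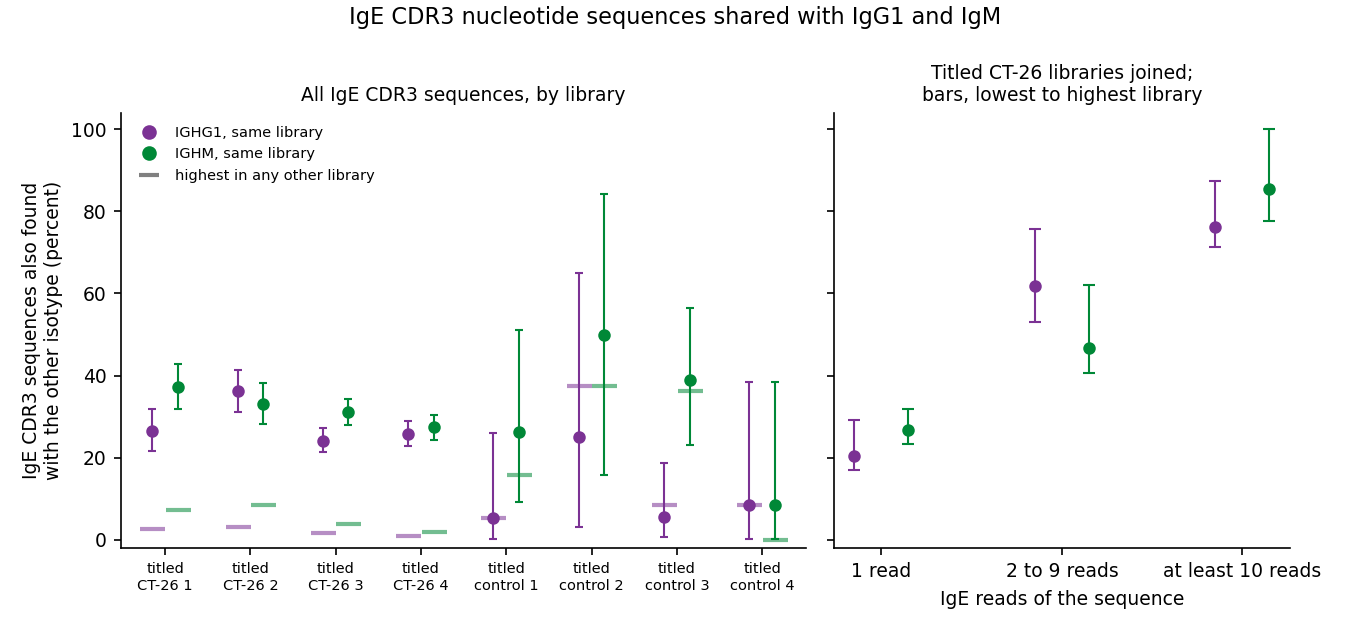
Percent of distinct IgE CDR3 nucleotide sequences also found with IGHG1 (purple) or IGHM (green); left, by library with exact 95% binomial intervals, dashes marking the highest share in any other library; right, titled CT-26 libraries joined, by IgE reads of the sequence, bars giving the lowest and highest library. In titled CT-26 libraries all points lie well above their dashes, and the share with IGHG1 is 20.3% for sequences of 1 read and 76.3% for those of at least 10.

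Sequences 1 base apart also linked the isotypes. There were 8 pairs in which an IgE sequence not found with IgG1 and an IgG1 sequence not found with IgE, each with at least 2 reads and the same J, differed at 1 base. The pair with most IgE reads, printed because both members were read repeatedly, came from titled CT-26 2 with 6 IgE and 43 IgG1 reads, and the base that differs is in capitals.
IgE, titled CT-26 2: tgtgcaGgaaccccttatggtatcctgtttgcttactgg
IgG1, titled CT-26 2: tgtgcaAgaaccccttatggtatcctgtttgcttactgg
The change is A7G, with the IgG1 base first and positions counted from 1 at the 5′ end. Whether it is a somatic mutation or a read error was not tested.

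No CDR3 measure was called different between the sets. IgE clonotypes averaged 14.1 ± 0.403 residues in titled CT-26 and 14.1 ± 0.824 in titled control libraries, and IgG1 clonotypes 14.4 ± 0.336 and 14.1 ± 0.273 (SD, n = 4 each; adjusted p = 1 and 0.686 over 6 tests, exact permutation). Net charge and mean hydropathy of the CDR3 were not called in either isotype, and the sets overlapped in each. Within libraries, IgG1 CDR3 were longer than IgM CDR3 by 0.769 ± 0.387 residues, in 8 of 8 libraries (adjusted p = 0.0208, exact permutation of signs). Their net charge, lysine and arginine minus aspartate and glutamate, was lower than in IgM in 8 of 8 libraries, by a mean difference of -0.205 ± 0.174 (SD; adjusted p = 0.0208, exact permutation of signs). IgE and IgG1 of a library did not differ past the threshold in length, charge or hydropathy, with differences of -0.121 ± 0.544 residues, 0.20 ± 0.375 charges and 0.0385 ± 0.176 (SD; adjusted p from 0.287 to 0.594, exact permutation of signs).

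CDR3 length profiles differed between titled CT-26 libraries, and IgE and IgG1 of a library were close at some lengths and apart at others, with no test of likeness made. Clonotypes of 16 residues made up 33.4% of IgE and 30.5% of IgG1 in titled CT-26 1, the length of the sequence printed for that library, which had 29 variants 1 base apart in IgE and 102 in IgG1. Clonotypes of at least 18 residues made up 3.92%, 15.6%, 20.5% and 5.69% of IgE and 4.41%, 14.9%, 19.5% and 4.74% of IgG1 in the 4 titled CT-26 libraries. Titled CT-26 2 and 3 were the high libraries in both isotypes. Clonotypes of 17 residues made up 1.89% of IgE and 13.3% of IgG1 in titled CT-26 2. Those of 14 residues made up 19.4% of IgE and 11.03% of IgG1 in titled CT-26 2, and 21.5% and 13.1% in titled CT-26 3. Those of 13 residues made up 21.7% of IgE and 12.03% of IgG1 in titled CT-26 1. In titled control libraries 0 IgE clonotypes had at least 18 residues, where a count of 0 allows between 8.11% and 37.5%. Clonotypes of at least 18 residues made up 7.13%, 9.03%, 2.61% and 10.1% of IgG1 there.

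No J segment was called in IgE or IgG1, and usage varied widely between libraries of one set. IGHJ1 made up 13.6%, 35.6%, 3.5% and 11.3% of IgE clonotypes in the titled CT-26 libraries, against 0% in all 4 titled control libraries, where a count of 0 again allows between 8.11% and 37.5%. The sets did not overlap, and the adjusted p was 0.229 (exact permutation over 8 tests, n = 4 each). IGHJ3 made up 25.6%, 25.9%, 62.2% and 43.4% of IgE clonotypes in titled CT-26 libraries, against 60%, 25%, 54.1% and 41.7% in titled control libraries. In IgG1, IGHJ4 was the segment with the highest mean in both sets, 39.1% ± 8.99 in titled CT-26 and 43.4% ± 8.71 in titled control libraries (SD, n = 4 each). The order of the titled CT-26 libraries was alike in IgE and IgG1 for some segments and not for others, with no test made. IGHJ1 was highest in titled CT-26 2 in both isotypes, with 21% in IgG1, and lowest in titled CT-26 3 in both, with 3.65% in IgG1. IGHJ2 was lowest in titled CT-26 3 in IgE (10.05%) and in titled CT-26 4 in IgG1 (11.8%, against 23.97% to 24.6% in the other 3), and IGHJ3 was highest in titled CT-26 3 in IgE and in titled CT-26 4 in IgG1 (43.1%).

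**Figure D4:**
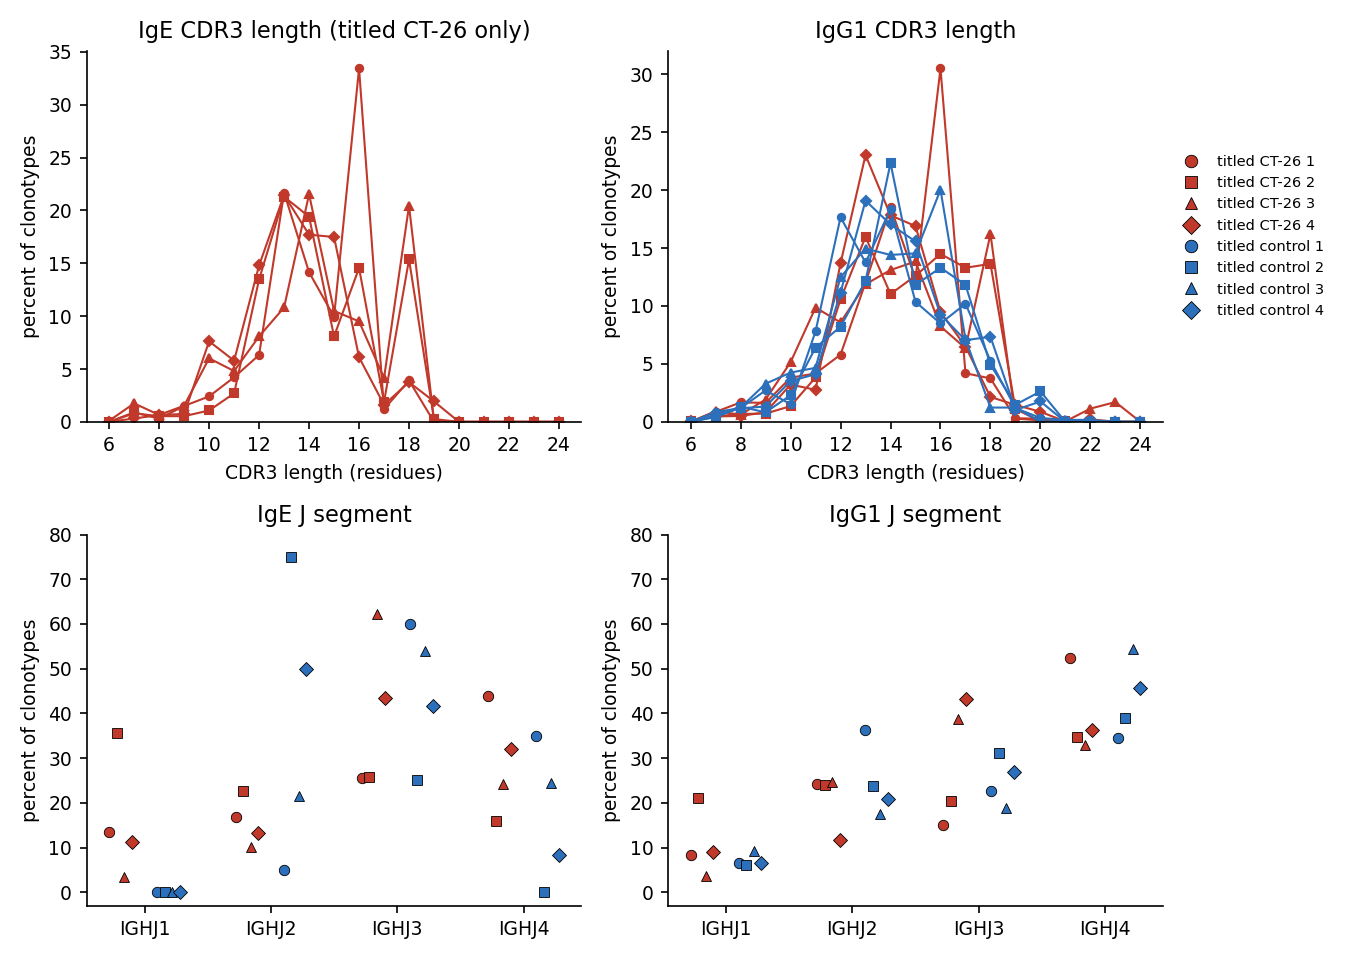
Upper panels, percent of clonotypes by CDR3 length in residues for IgE (titled CT-26 libraries alone) and IgG1 (all libraries), 1 line per library; lower panels, percent of clonotypes by J segment, 1 point per library, red for titled CT-26 and blue for titled control. The peak at 16 residues in titled CT-26 1 stands in both isotypes, at 33.4% of IgE and 30.5% of IgG1 clonotypes, and IGHJ1 is at 0% of IgE in titled control libraries.

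V segments of the IGHV5 subgroup, a large family near the D segments, had the highest mean share of the subgroups tested in both isotypes. IGHV5 made up 55.4% ± 8.42 of IgE clonotypes in titled CT-26 and 54.1% ± 28.2 in titled control libraries, and 62.2% ± 3.75 and 49.6% ± 10.5 of IgG1 clonotypes (SD, n = 4 each). In IgE of titled control libraries it ranged from 12.5% to 75%. It also made up 50.8% ± 3.41 and 47.9% ± 6.63 of IgM clonotypes (SD, n = 4 each), so a high share was not particular to IgG1 and IgE. Single segments with the highest mean share in IgG1 were IGHV4-1, at 11.1% ± 3.19 in titled CT-26 and 12.6% ± 4.97 in titled control libraries, IGHV5-6-5, at 10.04% ± 4.90 and 10.5% ± 2.0, and IGHV5-9, at 11.5% ± 8.80 and 4.46% ± 2.05. None of these 3 passed edgeR's quasi-likelihood test (adjusted p from 0.209 to 0.971). IGHV5-9 reached 23.9% in titled CT-26 1, where the largest IgG1 clonotype carries it; that clonotype has the CDR3 printed above for titled CT-26 1, which in IgE was mostly called IGHV5-12-2.

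Of 47 segments tested in IgG1, 2 were called, a background of 4.26%, and both were lower in titled CT-26 libraries. IGHV2-6-1 made up 0.0976%, 0.296%, 0.0432% and 0.0622% of clonotypes in titled CT-26 libraries, against 0.679%, 3.12%, 3.84% and 4.26% in titled control libraries, with no overlap, as in 6.38% of the segments tested, and a log2 fold change of -4.51 ± 0.78 (SE; edgeR adjusted p = 0.00065). IGHV2-3 made up 0.0390%, 0.0468%, 0.0216% and 0.140% in titled CT-26 libraries, against 0.340%, 0.493%, 8.92% and 0.881% in titled control libraries (log2 fold change -5.31 ± 1.02, SE; edgeR adjusted p = 0.00106). Titled control 3 stood far above the others in IGHV2-3, and its largest IgG1 clonotype, the sequence printed above for all titled control libraries, carries that segment, whereas in titled control 4 the same CDR3 was called IGHV2-6-1. With 1-base variants merged, IGHV2-6-1 was called (log2 fold change -3.60) and IGHV2-3 fell below the minimum of 10 clonotypes on average and was not tested, and without clonotypes of 1 read 0 segments were called (1 at an unadjusted p under 0.05). Without sequences found in another library IGHV2-6-1 was called (log2 fold change -4.43, edgeR adjusted p = 2.73e-06), IGHV2-3 again lay below the minimum, and IGHV5-9-2 was called (edgeR adjusted p = 0.00161). With all sequences IGHV5-9-2 made up 2.09%, 0%, 1.97% and 0.404% in titled CT-26 libraries and 0% in each titled control library. It was thus higher in titled CT-26 libraries, though not called with all sequences (edgeR adjusted p = 0.0609). The sets overlapped, and it passed the minimum only through titled CT-26 libraries. DESeq2 called 9 and TMM scaling 6. Joined by subgroup, IGHV2 made up 1.11% of IgG1 clonotypes in titled CT-26 and 8.87% in titled control libraries (log2 fold change -3.0, edgeR adjusted p = 0.00012).

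In IgE, 1 of 11 segments was called, a background of 9.09%, against 10 by DESeq2, 2 with TMM scaling, and 0 by edgeR without the filter on low numbers (4 at an unadjusted p under 0.05) or with 1-base variants merged (0 at an unadjusted p under 0.05). Titled control libraries held 20, 8, 37 and 12 IgE clonotypes in all, so segments passed the minimum through titled CT-26 libraries. A segment found only in titled control libraries could not enter, and IGHV5-9-4 itself had 66 clonotypes in titled CT-26 3. IGHV5-9-4 made up 0.904%, 0.270%, 7.21% and 1.5% of IgE clonotypes in titled CT-26 libraries, against 40%, 12.5%, 32.4% and 50% in titled control libraries. The sets did not overlap, as in 18.2% of the segments tested, and the log2 fold change was -3.73 ± 1.11 (SE; edgeR adjusted p = 0.0142). In titled control libraries these were 8, 1, 12 and 6 clonotypes, and the recurring IgE sequence printed above, with 6, 4 and 0 variants 1 base apart in titled control 1, 3 and 4, carries this segment. The call was lost with TMM scaling (log2 fold change -2.32, adjusted p = 0.0981), with DESeq2 (-0.49, adjusted p = 0.655) and without the filter on low numbers (-3.73, adjusted p = 0.134), and the segment fell below the minimum with 1-base variants merged. The call held without sequences found in another library (-3.59, edgeR adjusted p = 0.0238). The call was also lost without titled CT-26 1 (adjusted p = 0.101), titled CT-26 4 (0.163) or titled control 1 (0.0768), all by edgeR. IGHV5-17, the segment of 2 of the largest IgE clonotypes, made up 0.602%, 23.5%, 14.0% and 5.47% of IgE clonotypes in titled CT-26 libraries, against 5%, 0%, 2.7% and 0% in titled control libraries, and was not called (edgeR adjusted p = 0.392).

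The RNA-seq libraries of the same titles gave a separate measure of the constant genes. They held between 735298 and 1970950 counts, and whether an RNA and a BCR library of one title came from one spleen is not stated. Ighe had 22, 23, 49 and 45 counts in titled CT-26 libraries, against 1, 0, 0 and 4 in titled control libraries, which is 19.5, 16.9, 43.8 and 51.1 CPM (counts brought to a common library total by TMM, which takes most genes as equal) against 1.07, 0, 0 and 2.41. The sets did not overlap, as in 38.5% of all genes tested, and the log2 fold change was 4.87 ± 0.59 (SE; edgeR adjusted p = 2.28e-07). Ighg1 had 101.7, 179.0, 177 and 231 CPM in titled CT-26 libraries, against 35.2, 18.1, 15.04 and 10.2 in titled control libraries (log2 fold change 3.17 ± 0.31, SE; edgeR adjusted p = 2.05e-08). Titled CT-26 3 and 4 had the highest values of Ighe in RNA and also the highest IgE shares in the BCR libraries. Of the 8 constant genes 7 were tested, with 3 higher and 2 lower in titled CT-26 libraries, beside 21.2% higher and 21.6% lower among all 6408 genes tested (42.8% called). Ighm was not called (log2 fold change 0.08 ± 0.25, SE; edgeR adjusted p = 0.816), and Ighd fell by 3.94 on the log2 scale (edgeR adjusted p = 6.04e-12). Ighg3 was higher by 1.26 and Igha lower, with a log2 fold change of -0.82 (edgeR adjusted p = 0.0107 and 0.0089), and the call of Igha was lost on plain library totals (adjusted p = 0.24) and without titled CT-26 3 (0.0506). Ighg2b was not called in RNA (log2 fold change 0.34 ± 0.34, SE; edgeR adjusted p = 0.433), and Ighg2c lay below the filter with 0 counts in all 4 titled CT-26 libraries and 2, 1, 0 and 1 in titled control libraries, although IGHG2B and IGHG2C were both called higher in the BCR libraries. Counting was without strand, and single Ighg levels are uncertain. The cause of the difference between RNA and BCR libraries in Ighg2b and Ighg2c was not tested.

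None of the tested receptors of IgE and IgG1 was called higher in titled CT-26 RNA libraries. Of 9 listed receptor genes 7 were tested, with 0 higher and 4 lower, beside 21.2% higher and 21.6% lower among all genes tested. Lgals3, which encodes an IgE-binding lectin, was not called (log2 fold change 0.50 ± 0.28, SE; edgeR adjusted p = 0.152), and Fcer1a and Ms4a2 lay below the filter. The median log2 fold change of the 7 tested genes was -0.76 beside -0.02 over all genes tested. Fcer2a, which encodes the low-affinity IgE receptor CD23 of mature B cells, had 36.3, 16.9, 12.5 and 7.95 CPM in titled CT-26 libraries, against 204, 263, 315 and 178 in titled control libraries. The sets did not overlap (log2 fold change -3.67 ± 0.32, SE; edgeR adjusted p = 6.59e-09). Fcgrt, which encodes the neonatal Fc receptor that recycles IgG, fell by 1.45 on the log2 scale (edgeR adjusted p = 0.00102). Fcer1g, the signalling chain shared by activating Fc receptors, and Fcgr3, a low-affinity IgG receptor, fell by 0.76 and 0.82 (edgeR adjusted p = 0.013 and 0.0061). Both calls were lost on plain library totals, which move the median of all genes by 0.37 on the log2 scale; Fcer1g also missed without titled CT-26 2, titled CT-26 4 or titled control 2 (adjusted p from 0.0508 to 0.0755). Fcgr2b, the inhibitory IgG receptor of B cells, was not called (log2 fold change -0.24, edgeR adjusted p = 0.492), and its sign was positive on plain totals.

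Markers of B cells moved as well. All 4 listed B cell genes were lower in titled CT-26 RNA libraries, beside 21.6% lower among all genes tested, the median of their log2 fold changes being -1.96, and Ms4a1, which encodes CD20, had 45.1, 30.9, 25 and 54.5 CPM, against 658, 593, 617 and 482 in titled control libraries. All 4 listed T cell genes were lower too, with a median of -2.01. Of 8 plasma cell genes 3 were tested, with 0 higher and 1 lower, Jchain, which links IgM and IgA into polymers (log2 fold change -0.54, edgeR adjusted p = 0.0368); the call was lost on plain library totals (adjusted p = 0.671), without the filter on low counts (0.121) and without titled CT-26 2, 3 or 4 or titled control 1 or 3 (0.0516 to 0.148). The part of these cell markers in the isotype shares was not tested.

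Of 7 genes of basophils and mast cells, 3 were tested and 2 were higher, beside 21.2% higher among all genes tested. Prss34, a serine protease of these cells, had 22.1, 18.4, 19.7 and 32.9 CPM in titled CT-26 libraries, against 1.07, 0.725, 0 and 1.8 in titled control libraries (log2 fold change 4.37 ± 0.52, SE; edgeR adjusted p = 7.48e-08), with no overlap. Kit, the stem cell factor receptor, which blood cell precursors also carry, was higher by 1.06 (edgeR adjusted p = 0.0212), and the call was lost without titled CT-26 2, titled CT-26 4 or titled control 2 (adjusted p from 0.0519 to 0.103). Cpa3, a mast cell carboxypeptidase, was not called (log2 fold change 0.16, edgeR adjusted p = 0.818). The basophil protease Mcpt8 lay below the filter with 3, 2, 7 and 1 counts in titled CT-26 and 0, 4, 0 and 1 in titled control libraries, as did both chains specific to the high-affinity IgE receptor, Fcer1a and Ms4a2.

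**Figure D5:**
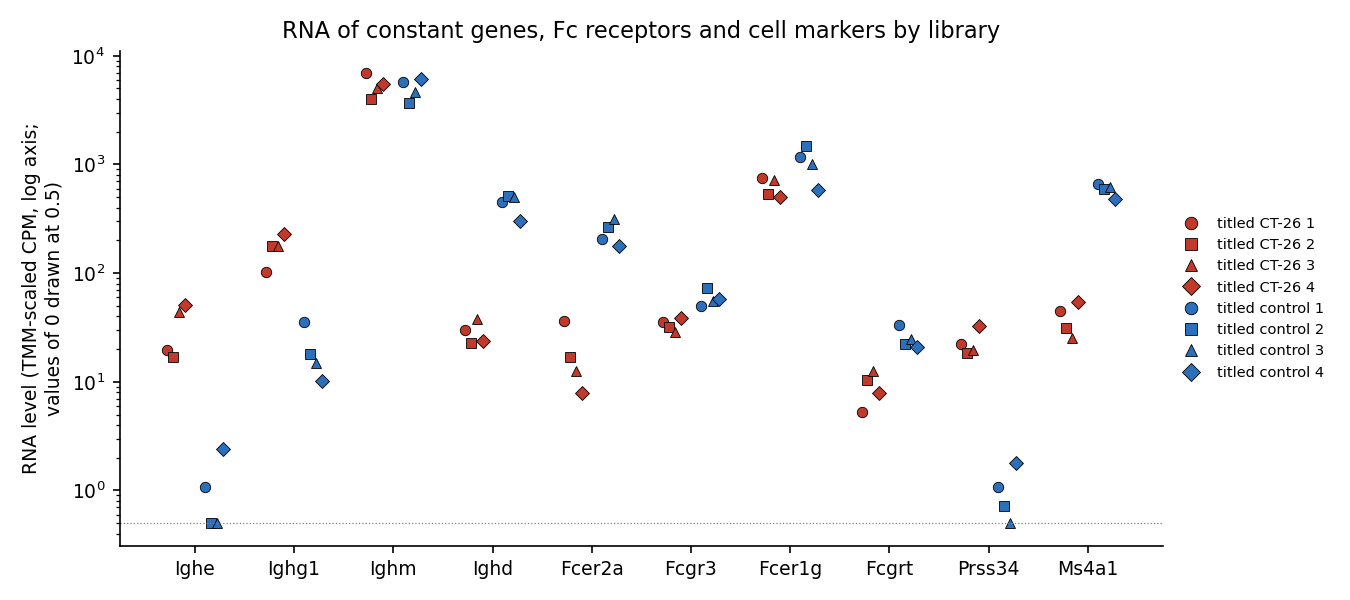
RNA levels in CPM on totals scaled by TMM (log axis, values of 0 drawn at 0.5), 1 point per library, red for titled CT-26 (left) and blue for titled control (right). Ighe, Ighg1 and Prss34 are higher in all 4 titled CT-26 libraries, Ighd, Fcer2a, Fcgr3, Fcgrt and Ms4a1 lower, and Ighm and Fcer1g overlap.

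Genes that direct the switch were mostly too low to test. Of 10 genes of switching and the response to interleukin 4, only Stat6, which transmits the interleukin 4 signal, and Pax5, a B cell transcription factor, passed the filter, and neither was called (log2 fold change -0.39 and -0.46; edgeR adjusted p = 0.293 and 0.224). Of 8 type 2 genes, Il1rl1, the receptor of interleukin 33, was tested and not called (log2 fold change 0.77, edgeR adjusted p = 0.19). Il4 had 1 count in all 8 libraries together, and Il5, Il9 and Il13 had 0, which at this depth allows levels of up to 1.52 to 4.08 CPM in a library.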

How the data were processed

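The BCR tables were deposited by the authors with a read count for each assembled CDR3 and its V, D, J and constant calls by a program not given in the sources used here. RNA tables hold raw counts per gene, made by the authors with featureCounts 2.0.1 on GENCODE M29 without strand, per the file headers. The submitters' processing notes name Trimmomatic 0.39 and STAR 2.7.10a and the builds GRCm39 and GRCm38. The labels name a T cell receptor kit for the libraries and no kit for B cell receptors.

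Entries were filtered as described, alleles were dropped, and 5 entries called IGHG2A were joined to IGHG2C. Equal-depth values are means of 20 random draws. Sets were compared over 4 libraries each by two-sided exact permutation, and isotypes of a library over 256 sign changes, for which the smallest p is 0.0078. edgeR 4.0.16 tested V segments averaging 10 clonotypes or more per library, without TMM, and, with its robust quasi-likelihood test and TMM, RNA genes past filterByExpr. All tests were adjusted by Benjamini-Hochberg and called at 0.05. The 2 edgeR procedures were tested on simulated counts drawn independently with a fixed dispersion. Whether they hold at the wider spread of some V segments, or for related sequences, was not tested. Limits for a count of 0 use 3 counts, and intervals are Clopper-Pearson at 95%. R 4.3.3, DESeq2 1.42.0, Python 3.11.15, numpy 2.4.6, pandas 2.3.3 and scipy 1.17.1 were used.

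V segments are named by the 6 highest mean shares and 6 smallest p per isotype, listed RNA genes freely, and CDR3 sequences by IgE reads. The members, lists and tests were chosen with earlier results of these data known. The alternatives were other normalisations, filters, clonotype definitions, matches and weights, a replicate block and leaving out each library. Leaving out CDR3 sequences found in another library, V subgroups, and merging before the V test were chosen after seeing the data. T cell receptor tables were not analysed here. The values of 1 listed RNA gene are not reported here.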

Additional observations from a re-analysis of the deposited data

Results flagged for a closer look

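Of 163 sets of 4 library values examined, 15 held 1 library far from the other 3. The rule flags about 1 in 20 sets of independent, normally distributed values. Sets here are related to each other and some lie at 0, so the number flagged is not read against that rate. Titled control 3 had 4 of these in IgG1. Its largest IgG1 clonotype had 325 reads, or 17.6% of its IgG1 reads, IGHV2-3 made up 8.92% of its clonotypes, and its mean CDR3 net charge was -0.468. Titled control 2, with 8 IgE reads, stood apart in the share of IgE sequences found with IgG1 (25%) and in IGHV4-1 (62.5% of IgE clonotypes). Titled control 3 stood apart in IgE as the titled control library with IGHV5-12-2 (2.7%) and IGHV5-6-3 (8.11%), where the others had 0%. These were 1 and 3 clonotypes, and any value beside 3 values of 0 is flagged by this rule.

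Among titled CT-26 libraries, titled CT-26 1 had more IGHJ4 in IgG1 (52.4%). Titled CT-26 2 had less IGHV1 (9.97%) and less IGHV5-9-3 (0.809%) in IgE. Titled CT-26 3 had more IGHV5-9-4 in IgG1 (6.70%) and a longer mean IgM CDR3 (14.1 residues, against 13.3 to 13.4 in the other 3). Titled CT-26 4 had less IGHJ2 in IgG1 (11.8%) and a shorter mean IgE CDR3 (13.5 residues).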

How the results depend on the processing

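The IgE and IgG1 shares kept their direction and their call by clonotypes, without entries of 1 read, among switched isotypes and without CDR3 sequences found in another library. With 1 library left out the differences lay between 0.423 and 0.596 percentage points for IgE and between 5.44 and 6.71 for IgG1; an exact permutation of 3 against 4 libraries cannot make a call (smallest p 0.0571), nor can one within a replicate block (smallest p 0.125), in which the unchanged differences of 0.508 and 6.06 points lost their call. Replicate numbers are not stated to mark pairs, and libraries of equal number correlated between -0.0914 and 0.0764 in RNA, between -0.268 and 0.272 in IgG1 V usage and between -0.196 and 0.479 in IgE V usage; the block moved the V calls to 1 in IgG1 and 2 in IgE and left 20 listed RNA genes called.

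IgE sequences found with IgG1 and with IgM differed by 52.8 and 39.6 points when weighted by reads. Without sequences found in another library they differed by 21.7 and 14.9 points. All of these were called, and none used equal reads of the other isotype. With IgM the difference was -0.431 points thinned and -3.23 with V and J matched. With 1 library left out it lay between 14.5 and 21.8 points for IgG1 and between -6.25 and 7.64 for IgM. IgG1 clonality differed by 0.0690 at all reads; without sequences found in another library clonotypes, clonality and the 10 largest differed by -42.65, 0.0140 and 2.67 points. With 1 library left out these lay between 74.8 and 123.95 clonotypes, -0.0472 and -0.00812, and -8.47 and -2.46 points.

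IgE CDR3 length differed by -0.148 residues without entries of 1 read and -0.0465 without sequences found in another library, and lay between -0.262 and 0.389 with 1 library left out; that of IgG1 lay between 0.140 and 0.410. Without entries of 1 read, hydropathy differed by 0.0665 in IgE and -0.0105 in IgG1, and IgE IGHJ3 and IGHJ4 by 4.05 and -0.857 points. With 1 library left out, hydropathy lay between -0.133 and 0.0666 in IgE and between -0.0325 and 0.0410 in IgG1, and IgG1 IGHJ1, IGHJ2 and IGHJ3 between -0.183 and 5.61, -5.84 and 0.415, and -0.148 and 9.20 points; 0 J segments were called in any of these.

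V segments called were 2 in IgG1 (TMM 6, DESeq2 9, without clonotypes of 1 read 0, merged 1, subgroups 1; 2 to 4 with 1 library left out) and 1 in IgE (TMM 2, DESeq2 10, no filter 0, merged 0, subgroups 0; 0 to 2 with 1 library left out). Without clonotypes of 1 read the IgE segments could not be fitted. IGHV4-1 turned to 0.52 (TMM) and 0.92 (DESeq2) in IgG1 and 1.04 and 2.74 in IgE, and IGHV5-6-5 to 0.68 and 1.04 in IgG1. With 1 library left out, IGHV4-1 lay between -0.404 and 0.0292 in IgG1 and -1.16 and 0.60 in IgE, IGHV5-6-5 between -0.34 and 0.18, IGHV5-12 between -0.24 and 0.25, IGHV5-17 between -0.33 and 0.38 and Ighm RNA between -0.0536 and 0.208. Listed RNA genes called ranged from 16 to 21, and Fcgr2b was 0.12 without TMM. The cause of these changes was not tested. Depth limits IgE in titled control libraries most, with 8 to 52 reads.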

Other observations

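In titled CT-26 libraries the IgM repertoire, from which IgG1 and IgE arise, differed in V subgroups from titled control libraries: IGHV4 made up 26.6% to 30.3% of IgM clonotypes in titled CT-26 and 13.1% to 20.1% in titled control libraries, while in IgG1 of the same libraries IGHV4 made up 9.13% to 16.5% and 7.0% to 21.1%. IGHV4 was less common in IgG1 than in IgM in all 4 titled CT-26 libraries and in 3 of 4 titled control libraries (in titled control 1 it made up 21.1% of IgG1 and 18.8% of IgM), and no test was made. Titled CT-26 3 had clonotypes of at least 18 residues at 12.1% of IgM, against 3.10% to 3.69% in the other 3, beside 19.5% of its IgG1 and 20.5% of its IgE. The lengths behind these shares differed. Clonotypes of 22 residues made up 7.09% of its IgM, 1.15% of its IgG1 and 0% of its IgE. Those of 18 residues made up 2.86%, 16.2% and 20.4%.

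IgG1 sequences were also found with IgM of the same library, for 28.8%, 22.7%, 26.9% and 21.8% of them in titled CT-26 libraries, against 36.3%, 32.5%, 33.9% and 32.9% in titled control libraries. The sets did not overlap, IgG1 depth differs between them, and no test was made. Of the 10 largest IgG1 sequences, 10 in each titled CT-26 library and 9, 9, 8 and 8 in titled control libraries were found with IgM, and 3, 10, 8 and 9 against 1, 0, 1 and 0 with IgE.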
